A study of Mus musculus with 12 samples.

Results

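The voltage-gated sodium channels, the voltage-gated calcium channels with their accessory subunits, and the HCN channels were followed in spinal cord of a mouse model of spinal muscular atrophy (SMA), in which too little survival motor neuron protein leads to loss of motor neurons. Members were the genes with a platform symbol beginning with Scn and a digit, with Cacn, or with Hcn and a digit from 1 to 4. Each was read from its brightest probe set over all 12 arrays, among probe sets with a single gene symbol. This gave 34 genes with 49 probe sets, out of 12394 genes with a single symbol. They are 8 sodium channel alpha subunits, 1 sodium channel beta subunit, 9 calcium channel alpha1 subunits, 3 alpha2delta subunits, 3 beta subunits, 8 genes of the gamma family and 2 HCN channels. Of the 34, 22 passed the filter on dim probe sets (a mean log2 value over all arrays above the 40th percentile) and were tested, and 12 lay below it.

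All mice came from line 4299 on the FVB background, which carries the transgene Tg(SMN2*delta7)4299Ahmb, a second transgene, Tg(SMN2)89Ahmb, and the targeted mouse allele Smn1tm1Msd. All groups had both human transgenes, SMN2+/+ and SmnΔ7+/+. The wildtype group was mSmn+/− and received vehicle, so it also held the transgenes and a single intact mouse Smn allele. The SMA vehicle group was mSmn -/- and received vehicle, although its treatment label reads untreated. The SMA ceftriaxone group was mSmn -/- and was injected daily into the peritoneum with 200 mg/kg of the antibiotic ceftriaxone from the age of 5 days. Each group had 4 arrays, and cords were taken at 13 days after perfusion with fixative. The labels mention both whole cords and the lumbar region, and leave the sex unstated. Nothing besides the group size of 4 mice says that each array was a separate animal, so p-values measure the spread between these arrays.

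Sodium channels carry the upstroke of the action potential. Their pore is formed by an alpha subunit, and beta subunits change its gating and placement. In axons that become myelinated, Nav1.2 (Scn2a) is known as the early alpha subunit of initial segments and nodes of Ranvier, and Nav1.6 (Scn8a) as the one that takes its place with maturation, while Nav1.1 (Scn1a) serves inhibitory interneurons and is also found in motor neurons. Calcium channels turn depolarisation into calcium entry for transmitter release, plateau potentials and gene regulation. Their alpha1 pore is brought to the membrane by alpha2delta and beta subunits, and several gamma-family members instead escort AMPA-type glutamate receptors and are called TARPs. HCN channels open on hyperpolarisation and carry the inward current that sets resting potential and pacing.

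Several members are neighbours on their chromosome. In RefSeq's annotation of GRCm38.p6, Scn3a, Scn2a, Scn1a, Scn9a and Scn7a lie on chromosome 2, with 3 other protein-coding genes between Scn2a and Scn1a. Cacng1, Cacng4 and Cacng5 follow each other on chromosome 11, Cacng7, Cacng8 and Cacng6 on chromosome 7, and Scn10a and Scn11a on chromosome 9. Scn1a and Scn2a moved in opposite directions in the cords described below, so the bases before their start sites are shown, 5′ to 3′ on the strand of the gene, with CG dinucleotides in capitals. The Scn1a stretch of 250 bases is chr2:66440838-66441087 on the minus strand (GRCm38.p6), and the Scn2a stretch of 245 bases is chr2:65620519-65620763 on the plus strand. The Scn2a stretch stops short of the start at 65620769, the outermost of its 2 listed starts.
Scn1a: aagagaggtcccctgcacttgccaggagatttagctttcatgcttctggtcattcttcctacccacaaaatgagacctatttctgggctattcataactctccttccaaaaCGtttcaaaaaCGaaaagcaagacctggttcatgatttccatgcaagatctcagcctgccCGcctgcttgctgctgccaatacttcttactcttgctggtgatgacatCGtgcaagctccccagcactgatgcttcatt
Scn2a: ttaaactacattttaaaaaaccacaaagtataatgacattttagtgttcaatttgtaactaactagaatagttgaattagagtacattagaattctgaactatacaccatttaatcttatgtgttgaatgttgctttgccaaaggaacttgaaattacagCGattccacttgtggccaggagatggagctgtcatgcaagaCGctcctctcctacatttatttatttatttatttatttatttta
The Scn1a stretch holds 4 CG dinucleotides and 46.8% G and C, and the Scn2a stretch holds 2 and 30.2%. RefSeq promoters, each 300 bases long, were matched for 26 of the 34 members and gave 36 start sites, with a median of 10 CG dinucleotides against 7 over all 32851 promoters. The letters GGGCGG, on either strand, stood in 15 of the 36 member promoters and in 35.7% of all promoters. The letters TATAAA stood in 2 of the 36, at Cacna1d and at Scn2a, and in 13.6% of all promoters. The match at Scn2a lies outside the bases shown. These matches describe letters in the windows only.

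The labels were checked first. The mean signal of Smn1 was 313 ± 70.1 (SD, n = 4) for wildtype cords, 4.23 ± 0.991 for SMA cords with vehicle and 7.28 ± 5.85 for those with ceftriaxone. Wildtype array 2 stood apart: its correlation with each remaining wildtype array was 0.924 to 0.930, while these correlated with one another at 0.986 to 0.989, and its summed signal of 7 thymus genes was 27502, against 118 to 223 in the other wildtype arrays. Values without this array are given where it changed the call of a channel gene or of a listed partner. The signal of Xist, the RNA that silences an X chromosome in female cells, exceeded 1000 on 4 arrays of the SMA ceftriaxone group, 2 of the SMA vehicle group and 1 of the wildtype group. The neuron list of 8 genes summed to 30451 in wildtype array 2, to 42377 to 44439 in the other wildtype arrays, to 45231 to 49170 in SMA vehicle and to 40732 to 44165 in SMA ceftriaxone arrays. All 8 of its genes were above the filter, and they did not move together. In SMA vehicle against wildtype cords 5 of the 8 passed as higher and 1 as lower (47.2% of all probe sets passed). In these bulk samples, fewer cells of a type and less RNA per cell cannot be told apart.

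**Figure D1:**
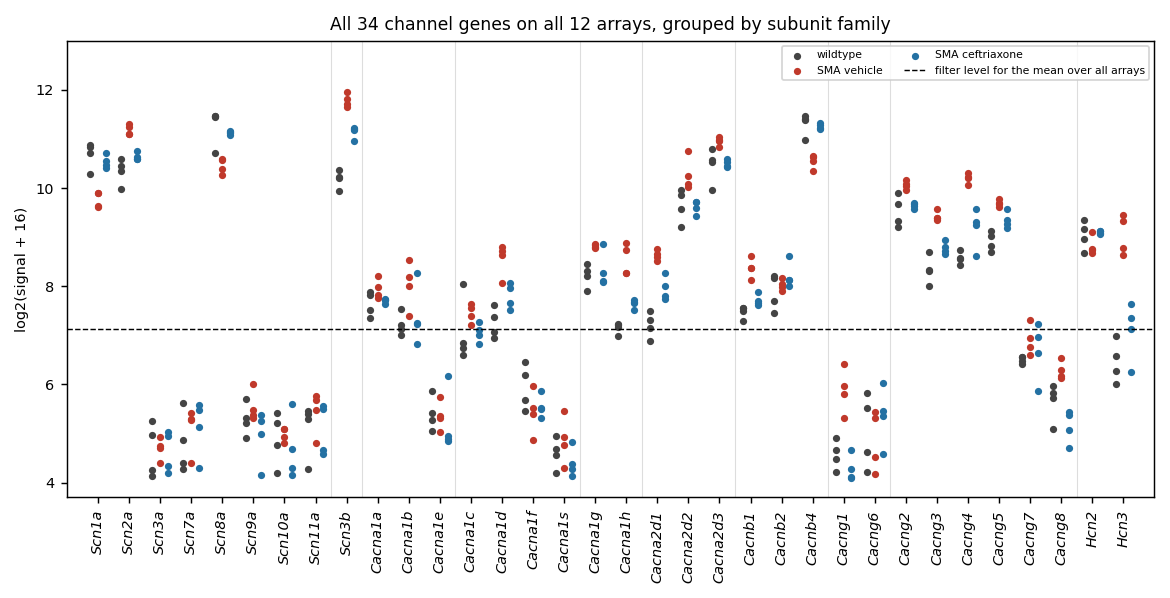
Each point is one array, with log2(signal + 16) on the vertical axis for all 34 genes in order of subunit family; vertical lines separate the families and the dashed line is the filter level for the mean over all arrays (7.14). The 12 genes whose means lie below the line were not tested in the main model, and levels of different genes cannot be ranked against each other on this scale.

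Scn8a, Scn1a and Cacnb4 fell in SMA vehicle cords against wildtype, while Scn2a, Scn3b, Hcn3 and many calcium channel subunits rose. Of the 22 genes tested with limma, 18 passed the adjusted threshold of 0.05, against 47.2% of all 13575 probe sets tested. Of these, 15 were higher (24.9% of all probe sets) and 3 lower (22.3%). In 17 of the 22 the wildtype and SMA vehicle arrays were fully apart (42.5% of all). The median difference was 0.70 on the log2 scale over the 22 genes and 0.01 over all probe sets. Hcn3 and Cacna1c had wildtype means below the filter level. Hcn3 passed it through its SMA vehicle arrays, and Cacna1c through its SMA vehicle arrays and wildtype array 2, its highest at 248. These shares therefore describe the tested genes and not all 34.

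Among the sodium channel alpha subunits, Scn1a encodes Nav1.1. The signals of Scn1a were 1865, 1241, 1655 and 1815 in wildtype arrays 1 to 4, 939, 939.9, 778 and 769 in SMA vehicle arrays and 1335, 1487, 1399 and 1665 in SMA ceftriaxone arrays. Every SMA vehicle array was below every wildtype array and every SMA ceftriaxone array. Scn1a fell by 0.92 ± 0.13 (SE; adjusted p = 7.52e-05) in SMA vehicle against wildtype cords (log2(signal + 16) scale, limma with Benjamini-Hochberg adjustment), with a 95% interval of -1.19 to -0.64.

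Scn8a encodes Nav1.6, the main alpha subunit of mature nodes. The signals of Scn8a were 2766, 1662, 2811 and 2825 in wildtype arrays 1 to 4, 1514, 1524, 1333 and 1222 in SMA vehicle arrays and 2238, 2201, 2138 and 2289.6 in SMA ceftriaxone arrays. SMA vehicle arrays were again below all others, although wildtype array 2 lay well under the other wildtype arrays. Scn8a fell by 0.81 ± 0.15 (SE; adjusted p = 0.00056) in SMA vehicle cords.

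Scn2a encodes Nav1.2, known from unmyelinated axons and from early nodes. The signals of Scn2a were 1531, 1001, 1377 and 1295 in wildtype arrays 1 to 4, 2166, 2516, 2180.1 and 2422 in SMA vehicle arrays and 1705, 1535, 1567 and 1526 in SMA ceftriaxone arrays. Here SMA vehicle arrays were the high ones, with no overlap, and SMA ceftriaxone arrays overlapped with wildtype. Scn2a rose by 0.84 ± 0.11 (SE; adjusted p = 5.21e-05) in SMA vehicle cords.

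Scn3b encodes the beta3 subunit, a small membrane partner of the alpha subunits. The signals of Scn3b were 1297, 970, 1164 and 1179 in wildtype arrays 1 to 4, 3207, 3356, 3602 and 3945 in SMA vehicle arrays and 2374, 1970.4, 2333 and 2300.2 in SMA ceftriaxone arrays. The 3 groups were fully separated, with SMA ceftriaxone between the others. Scn3b rose by 1.60 ± 0.10 (SE; adjusted p = 4.13e-07), to 3.04 times the wildtype value on the offset scale, and had the smallest p of all members in this comparison.

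**Figure D2:**
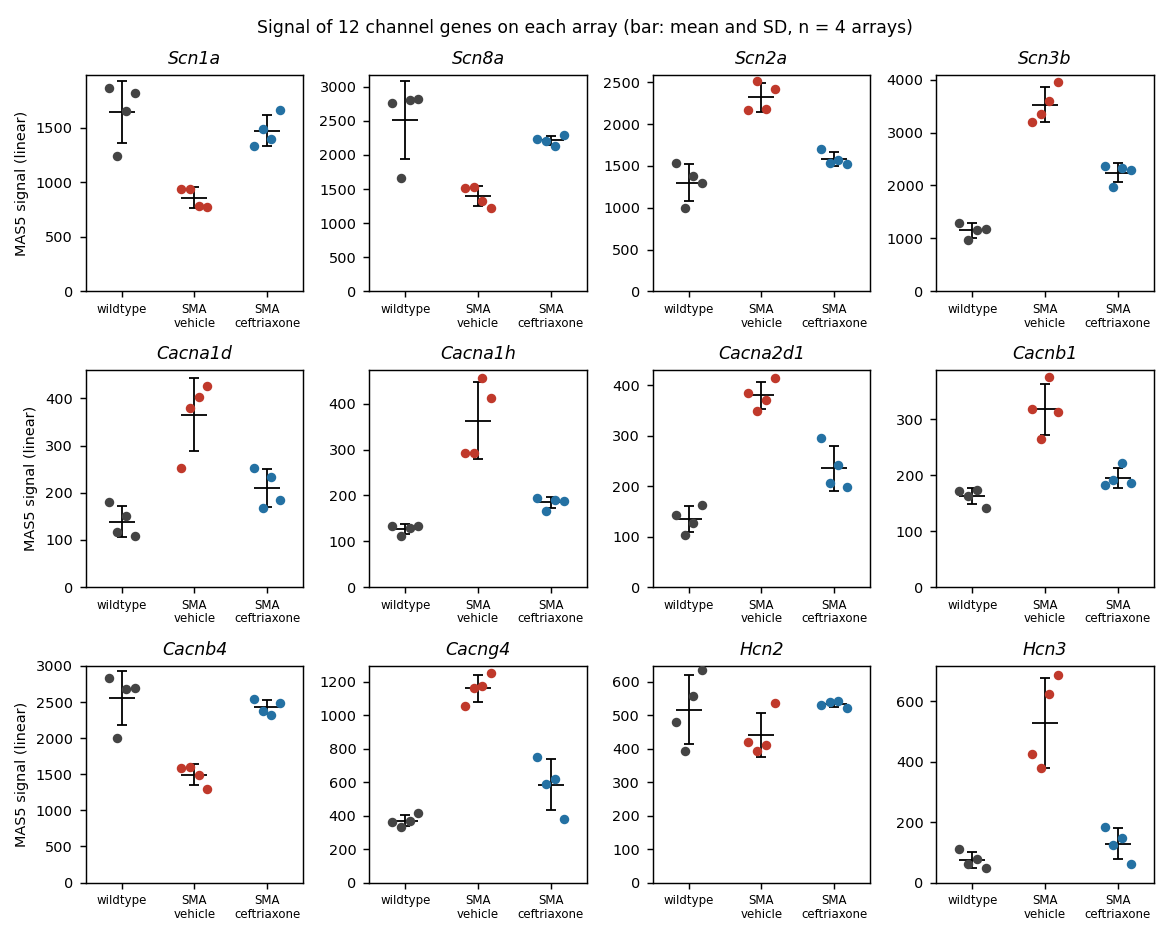
MAS5 signal on a linear scale from 0 is shown for 12 channel genes; points are single arrays, and bars give the mean and SD of the 4 arrays of each group. SMA vehicle arrays lie below both other groups for Scn1a, Scn8a and Cacnb4 and above them for Scn2a, Scn3b and Hcn3.

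Myelin is laid down in the cord at this age, and the markers of other cells moved with these results. The sum of 8 oligodendrocyte genes was 25475 to 53418 in SMA vehicle arrays, against 85033 to 136275 in wildtype and 99094 to 108883 in SMA ceftriaxone arrays, and all 8 were above the filter. The astrocyte sum (7 genes) was 15587 to 21142 in SMA vehicle, 21739 to 35680 in wildtype and 30028 to 32080 in SMA ceftriaxone arrays. Its genes did not move together: in SMA vehicle against wildtype cords 4 of the 7 fell and 3, Slc1a3, Aldh1l1 and Sox9, rose. The microglia sum (6 genes, all above the filter) was 3919 to 4594 in SMA vehicle and 5057 to 7315 in wildtype arrays, and the endothelium sum (5 genes, all above the filter) 1529 to 2098 and 2154 to 2763. In SMA ceftriaxone arrays these were 5846 to 6835 and 1986 to 2620.3. Of the single genes, 4 of the 6 for microglia and 3 of the 5 for endothelium passed as lower in SMA vehicle against wildtype cords. In both lists 0 passed as higher (47.2% of all probe sets passed in either direction). The Schwann cell sum (3 of 5 genes measured, 1 above the filter) was 814 to 4716 in SMA vehicle, 6148 to 10733 in wildtype and 3514 to 9288 in SMA ceftriaxone arrays. Nearly all of this sum was Pmp22, its only gene above the filter. The part of these lists in the channel results was not tested. The ratio of one channel probe set to another on the same array is given for pairs chosen after their values were seen. Their separation follows from the single-gene results, so it is described with no test and adds no further evidence. With the wildtype mean set to 0, the log2 difference Scn2a minus Scn8a was 1.44 to 1.90 in SMA vehicle and 0.35 to 0.54 in SMA ceftriaxone arrays, and -0.19 to 0.20 in wildtype. Scn2a minus Scn1a was 1.53 to 1.97 in SMA vehicle, 0.21 to 0.68 in SMA ceftriaxone and -0.15 to 0.07 in wildtype arrays. In both pairs no group overlapped with another. The same centred difference for Cacnb1 minus Cacnb4 was 1.31 to 1.89 in SMA vehicle and 0.14 to 0.53 in SMA ceftriaxone arrays, where the latter overlapped with wildtype (-0.27 to 0.34). Hcn3 minus Hcn2 was 2.53 to 3.16 in SMA vehicle arrays, -0.25 to 1.12 in SMA ceftriaxone arrays and -0.77 to 0.61 in wildtype arrays, with only the SMA vehicle arrays apart.

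**Figure D3:**
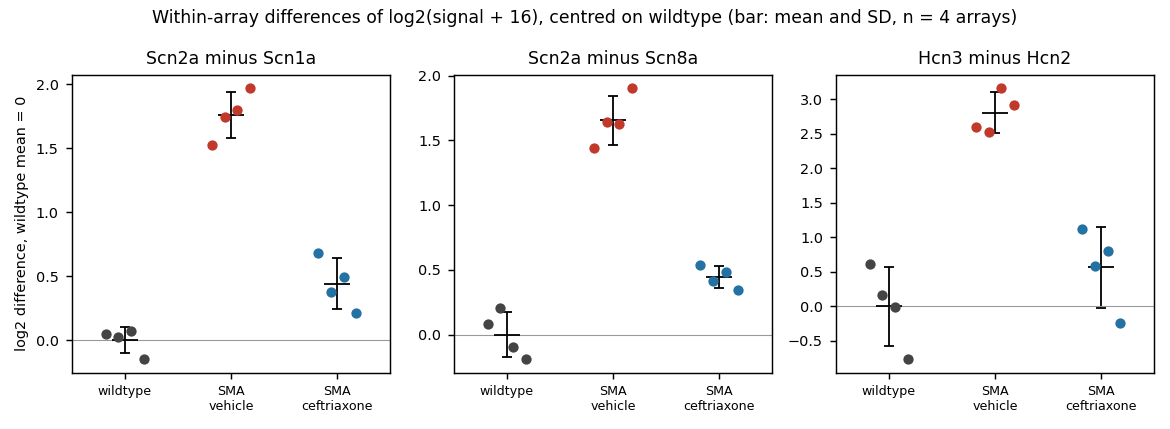
Each point is one array's difference of log2(signal + 16) between 2 channel genes, with the mean of the 4 wildtype arrays set to 0 and bars for the group mean and SD. The SMA vehicle arrays lie above both other groups in all 3 pairs shown, and for Scn2a minus Scn8a the SMA ceftriaxone arrays lie between 0.35 and 0.54.

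Among the pore-forming calcium channel subunits, the T-type gene Cacna1h and the L-type gene Cacna1d had the largest differences. Cacna1h encodes Cav3.2, a T-type channel that opens near rest. The signals of Cacna1h were 133, 110.3, 129 and 134 in wildtype arrays 1 to 4, 292, 292, 456 and 413 in SMA vehicle arrays and 195, 167, 190 and 188 in SMA ceftriaxone arrays. SMA vehicle arrays were all above the rest, and SMA ceftriaxone arrays all lay above wildtype. Cacna1h rose by 1.39 ± 0.15 (SE; adjusted p = 9.77e-06) in SMA vehicle cords.

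Cacna1g encodes Cav3.1, the other T-type channel tested. The signals of Cacna1g were 336, 223, 282 and 302 in wildtype arrays 1 to 4, 452, 422, 440 and 431 in SMA vehicle arrays and 449, 260.1, 291 and 255 in SMA ceftriaxone arrays. SMA vehicle arrays were tight and above every wildtype array, while SMA ceftriaxone array 1 reached into their range. Cacna1g rose by 0.60 ± 0.16 (SE; adjusted p = 0.00895) in SMA vehicle cords.

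Cacna1d encodes Cav1.3, an L-type channel of neurons that opens at relatively low voltage. The signals of Cacna1d were 179, 118, 150.3 and 108 in wildtype arrays 1 to 4, 253, 380, 404 and 427 in SMA vehicle arrays and 254, 168, 233 and 186 in SMA ceftriaxone arrays. The SMA vehicle arrays lay above all wildtype arrays, and the lowest of them, array 1, was just under SMA ceftriaxone array 1. Cacna1d rose by 1.30 ± 0.19 (SE; adjusted p = 0.000122).

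Cacna1c encodes Cav1.2, the other neuronal L-type channel. The signals of Cacna1c were 91.7, 248, 99.5 and 80.6 in wildtype arrays 1 to 4, 132, 152, 184 and 172 in SMA vehicle arrays and 123, 97.9, 138 and 113 in SMA ceftriaxone arrays. Wildtype array 2 was the highest of all 12 arrays, and the other 3 wildtype arrays were among the lowest 4. Its difference of 0.39 ± 0.26 (adjusted p = 0.241) did not pass with all arrays. Without wildtype array 2 it was 0.72 (adjusted p = 0.001), but the filter, which that array helped the gene to pass, was not redone.

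Cacna1a and Cacna1b encode the P/Q-type and N-type pores that trigger transmitter release. The signals of Cacna1b were 133, 112, 125 and 171 in wildtype arrays 1 to 4, 241, 153, 276 and 354 in SMA vehicle arrays and 293, 136, 135 and 98.1 in SMA ceftriaxone arrays. Cacna1b rose by 0.80 ± 0.29 (SE; adjusted p = 0.0349), but its groups overlapped in wildtype array 4 and SMA vehicle array 2. That call ended without any of wildtype array 1 (adjusted p = 0.0628), wildtype array 2 (0.0566), wildtype array 3 (0.0733), or of the SMA vehicle arrays 1 (0.0604), 3 (0.083) or 4 (0.11). It also ended with no filter (0.0558) and with Xist signal as a covariate (0.0526). The signals of Cacna1a were 166, 147, 221 and 209 in wildtype arrays 1 to 4, 200.4, 211, 238 and 281 in SMA vehicle arrays and 199, 183, 194 and 194 in SMA ceftriaxone arrays. The wildtype and SMA vehicle arrays of Cacna1a overlapped, and its difference of 0.31 ± 0.14 (adjusted p = 0.089) did not pass. It passed without wildtype array 3 (0.39, adjusted p = 0.0469) and with the mean of its probe sets (0.33, adjusted p = 0.0321).

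All 3 alpha2delta genes measured rose. Cacna2d1 encodes alpha2delta-1, the subunit that binds gabapentin. The signals of Cacna2d1 were 144, 103, 127 and 164 in wildtype arrays 1 to 4, 385, 349, 371 and 415 in SMA vehicle arrays and 295, 207, 242 and 198 in SMA ceftriaxone arrays. The 3 groups were fully separated, with SMA vehicle highest. Cacna2d1 rose by 1.41 ± 0.15 (SE; adjusted p = 9.29e-06) in SMA vehicle cords. Cacna2d2 rose by 0.63 ± 0.18 (SE; adjusted p = 0.0106); its signals were 578 to 987 in wildtype, 1026 to 1722 in SMA vehicle and 675 to 830.3 in SMA ceftriaxone arrays. Cacna2d3 rose by 0.49 ± 0.14 (SE; adjusted p = 0.00961), with signals of 974 to 1752 in wildtype, 1814 to 2078 in SMA vehicle and 1357 to 1519.9 in SMA ceftriaxone arrays. Wildtype array 2 was the lowest wildtype array for both, and without it the rise of Cacna2d3 was 0.33 (adjusted p = 0.00263) and that of Cacna2d2 0.48 (adjusted p = 0.0184).

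The beta subunits, which sit under the pore and promote its delivery to the membrane, went in different directions. Cacnb4 encodes beta4, the subunit missing in the ataxic lethargic mouse. The signals of Cacnb4 were 2834, 2008, 2674 and 2696 in wildtype arrays 1 to 4, 1581, 1603, 1494 and 1290.2 in SMA vehicle arrays and 2541, 2371, 2327 and 2493 in SMA ceftriaxone arrays. SMA vehicle arrays lay under all others, and SMA ceftriaxone arrays lay within the wildtype range. Cacnb4 fell by 0.76 ± 0.11 (SE; adjusted p = 7.49e-05) in SMA vehicle cords.

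Cacnb1 encodes beta1, the form known from skeletal muscle that neurons also make. The signals of Cacnb1 were 172, 163, 173 and 142 in wildtype arrays 1 to 4, 317, 264, 376 and 313 in SMA vehicle arrays and 181, 191, 221 and 185 in SMA ceftriaxone arrays. SMA vehicle arrays lay above all others, and SMA ceftriaxone arrays all lay above wildtype by a small margin. Cacnb1 rose by 0.90 ± 0.12 (SE; adjusted p = 6.19e-05). The sum of 12 skeletal muscle genes was also highest in SMA vehicle arrays, 2719 to 6345 against 748 to 1856 in wildtype arrays. The part of muscle RNA in the Cacnb1 result was not tested. Cacnb2, which encodes the cardiac form beta2, had signals of 160.4 to 279.9 in wildtype, 222 to 270.3 in SMA vehicle and 242 to 374 in SMA ceftriaxone arrays. Its difference of 0.14 ± 0.18 (adjusted p = 0.549) did not pass.

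The 4 tested TARP genes all rose in SMA vehicle cords. Several TARPs carry AMPA receptors to synapses and slow their closing. The signals of Cacng4 were 363, 332, 368 and 414 in wildtype arrays 1 to 4, 1054, 1164, 1175 and 1251 in SMA vehicle arrays and 750.2, 590.1, 619.6 and 379 in SMA ceftriaxone arrays. Cacng4, which encodes gamma4, a TARP prominent in the developing nervous system, rose by 1.61 ± 0.16 (SE; adjusted p = 6.18e-06), to 3.06 times wildtype on the offset scale, and its SMA vehicle arrays were far above the rest. The signals of Cacng3 were 401, 241, 303 and 304 in wildtype arrays 1 to 4, 746, 638, 658 and 652 in SMA vehicle arrays and 391, 427, 479 and 407 in SMA ceftriaxone arrays. Cacng3, which encodes gamma3, rose by 1.09 ± 0.13 (SE; adjusted p = 2.21e-05) with no overlap. Cacng5, which encodes gamma5, rose by 0.77 ± 0.11 (SE; adjusted p = 8.99e-05), from 397 to 546 in wildtype to 764 to 858 in SMA vehicle arrays. Cacng2, which encodes stargazin, the first TARP described, rose by 0.53 ± 0.13 (SE; adjusted p = 0.0036), from 576 to 935 to 975 to 1125, again with no overlap.

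Of the HCN channels, Hcn3 showed the largest difference of all members. The signals of Hcn3 were 111, 61.3, 79.1 and 48.2 in wildtype arrays 1 to 4, 425, 379.9, 625 and 687 in SMA vehicle arrays and 183, 124, 148 and 60 in SMA ceftriaxone arrays. All SMA vehicle arrays lay far above the other groups, and SMA ceftriaxone array 4 lay under 3 of the wildtype arrays. Hcn3 rose by 2.59 ± 0.30 (SE; adjusted p = 1.74e-05) in SMA vehicle cords. Its wildtype and SMA ceftriaxone means were under the filter level, so the size depends in part on the offset; over the alternatives run it was 2.08 to 2.83. Hcn2 encodes a widely made neuronal HCN channel. The signals of Hcn2 were 481, 394, 558 and 636 in wildtype arrays 1 to 4, 419, 395, 412 and 537 in SMA vehicle arrays and 530, 539.6, 543 and 523 in SMA ceftriaxone arrays. The wildtype and SMA vehicle arrays of Hcn2 overlapped, and its difference of -0.21 ± 0.13 (adjusted p = 0.215) did not pass. Without wildtype array 2 it was -0.33 (adjusted p = 0.0224).

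**Figure D4:**
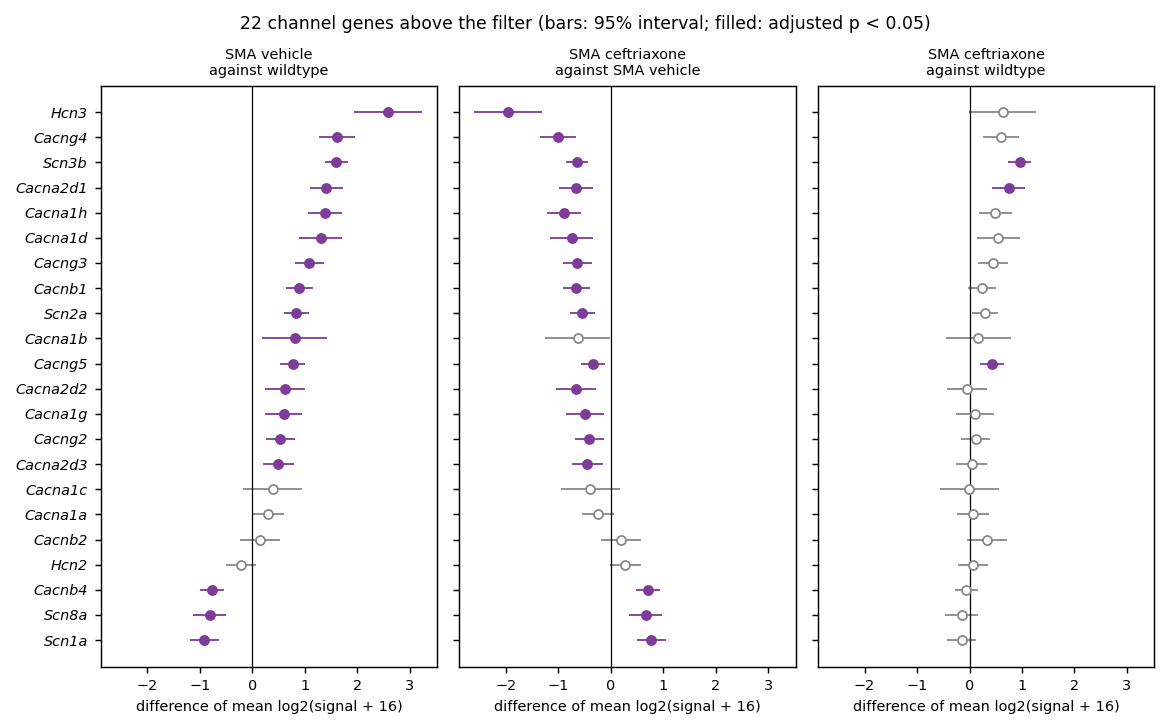
Points are log2 fold changes of the 22 tested genes in the 3 comparisons, with bars for the 95% interval of limma; filled points passed the adjusted threshold of 0.05. In SMA vehicle against wildtype cords 15 genes lie above 0 and 3 below among the filled points, and in SMA ceftriaxone against SMA vehicle cords 3 lie above and 14 below.

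SMA ceftriaxone cords were then compared with SMA vehicle cords, the contrast that asks what the antibiotic changed in mice of the same genotype. Scn1a, Scn8a and Cacnb4 were higher with ceftriaxone, and 14 genes, led by Hcn3, Cacng4 and Cacna1h, were lower. Thus 17 of 22 passed, against 35.9% of all probe sets, with 3 higher (18.3% of all) and 14 lower (17.7% of all). The groups did not overlap in 16 (45.3% of all). Hcn3, one of the 17, passed the filter only through its SMA vehicle arrays, so its count here follows in part from that choice. Its SMA ceftriaxone and wildtype means lay below the filter level. The median was -0.52 over the 22 genes and -0.01 over all probe sets. This comparison shares its SMA vehicle arrays with the one above, so opposite signs in the 2 are not independent of each other.

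Scn1a rose by 0.77 ± 0.13 (SE; adjusted p = 0.00058), with mean signals of 857 ± 95.7 without and 1471 ± 143 with treatment (SD over the 4 arrays). Scn8a rose by 0.66 ± 0.15 (SE; adjusted p = 0.0037), from 1398 ± 147 to 2217 ± 63.8. Scn2a fell by 0.55 ± 0.11 (SE; adjusted p = 0.00223), from 2321 ± 175 to 1583 ± 83.2. In each of these alpha subunit genes the 4 arrays of one group lay wholly apart from the 4 of the other. Scn3b fell by 0.65 ± 0.10 (SE; adjusted p = 0.000345), from 3527 ± 323 to 2244 ± 185, also without overlap.

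Among calcium channel pores, both T-type genes fell. Cacna1h fell by 0.89 ± 0.15 (SE; adjusted p = 0.000567), with no overlap, from 363 ± 84.4 to 185 ± 12.4. Cacna1g fell by 0.49 ± 0.16 (SE; adjusted p = 0.0326), but SMA ceftriaxone array 1 overlapped with SMA vehicle. The Cacna1g call ended without any single SMA vehicle array (adjusted p = 0.0558 to 0.0708), and without SMA ceftriaxone arrays 2 (0.0987), 3 (0.0726) or 4 (0.0972). It also ended under quantile normalization (0.0508) and with no filter (0.0517). Of the L-type genes, Cacna1d fell by 0.75 ± 0.19 (SE; adjusted p = 0.00884). Cacna1c differed by -0.39 ± 0.26 (adjusted p = 0.261) and did not pass with all arrays, but did without wildtype array 2 (adjusted p = 0.0281), which enters the shared estimate of the spread. Cacna1b, the N-type gene, differed by -0.63 ± 0.29 (adjusted p = 0.104); this passed without SMA vehicle array 2 (adjusted p = 0.0395) or without SMA ceftriaxone array 1 (adjusted p = 0.0108), the array that lay far above the other SMA ceftriaxone arrays. Cacna1a, the P/Q-type gene, differed by -0.24 ± 0.14 (adjusted p = 0.197), with all SMA ceftriaxone arrays below all SMA vehicle arrays.

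The alpha2delta genes all fell with ceftriaxone. Cacna2d1 fell by 0.67 ± 0.15 (SE; adjusted p = 0.00376) and Cacna2d2 fell by 0.67 ± 0.18 (SE; adjusted p = 0.0105). Cacna2d3 fell by 0.45 ± 0.14 (SE; adjusted p = 0.0214), a call that ended without SMA vehicle arrays 3 (0.0595) or 4 (0.0514) and without SMA ceftriaxone arrays 2 (0.0543) or 4 (0.0562). No SMA ceftriaxone array of the 3 genes reached the SMA vehicle range. Of the beta subunits, Cacnb4 rose by 0.70 ± 0.11 (SE; adjusted p = 0.00031), from 1492 ± 143 to 2433 ± 101, and Cacnb1 fell by 0.66 ± 0.12 (SE; adjusted p = 0.00118). Cacnb2 differed by 0.19 ± 0.18 (adjusted p = 0.424) and did not pass.

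All 4 tested TARP genes fell. Cacng4 fell by 1.01 ± 0.16 (SE; adjusted p = 0.000449), from 1161 ± 81.1 to 585 ± 154, and SMA ceftriaxone array 4 was the lowest of its group, inside the wildtype range. Cacng3 fell by 0.64 ± 0.13 (SE; adjusted p = 0.00201), from 673 ± 49.3 to 426 ± 38.4. The remaining TARP genes moved less. Cacng2 fell by 0.41 ± 0.13 (SE; adjusted p = 0.0221), a call that ended without SMA vehicle array 3 (0.0646) or SMA ceftriaxone array 4 (0.058). Cacng5 fell by 0.34 ± 0.11 (SE; adjusted p = 0.027); this ended without SMA vehicle arrays 1 (0.0542), 2 (0.0713) or 3 (0.0562) and without SMA ceftriaxone arrays 2 (0.0563), 3 (0.0693) or 4 (0.0817), and under quantile normalization (0.0553).

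Hcn3, the HCN channel gene that rose most in SMA vehicle cords, fell by 1.96 ± 0.30 (SE; adjusted p = 0.000335), from 529 ± 149 to 128 ± 51.7. Hcn2 differed by 0.28 ± 0.13 (adjusted p = 0.126), which passed only without wildtype array 2 among the arrays left out in turn (adjusted p = 0.0409). Xist was high on every SMA ceftriaxone array but not on every SMA vehicle array, as given above. Sex, which the labels leave unstated, therefore cannot be fully told apart from treatment in this contrast. With Xist signal as a covariate, 10 genes were lower with ceftriaxone instead of 14, and 3 were higher. Over all probe sets, the same covariate took lower calls from 2397 to 1751 and higher calls from 2482 to 1821. The calls for Cacna1g, Cacna2d3, Cacng2 and Cacng5 ended, with adjusted p of 0.0769, 0.0621, 0.0987 and 0.0675.

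SMA ceftriaxone cords stood much closer to wildtype, in a comparison of groups that differ in both genotype and treatment. Xist was high on every SMA ceftriaxone array but not on every wildtype array, as given above. Sex therefore cannot be fully told apart from genotype and treatment here. Scn3b, Cacna2d1 and Cacng5 were higher in SMA ceftriaxone cords. These were 3 of 22, against 4.21% of all probe sets (3.29% of all for higher calls), and 0 were lower by limma (0.928% of all). At an unadjusted p under 0.05, 8 were higher and 0 lower. The share of all probe sets at that threshold was not counted, so the shares above are no measure for it. The groups did not overlap in 5 of 22 (11.6% of all). The median was 0.20 over the 22 genes and 0.01 over all probe sets.

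Scn3b was higher by 0.96 ± 0.10 (adjusted p = 0.00117), from 1152 ± 135 in wildtype to 2244 ± 185 in SMA ceftriaxone cords, with all arrays apart. Cacna2d1 was higher by 0.74 ± 0.15 (adjusted p = 0.0166), a call that ended without SMA ceftriaxone array 3 (0.0622), in a fit of only the 2 groups (0.0799) and with Xist as a covariate (0.116). Cacng5 was higher by 0.43 ± 0.11 (adjusted p = 0.0456) and did not hold in 18 of 24 alternatives, with adjusted p of up to 0.192. Leaving out each array in turn, it kept its call only without wildtype array 1 or wildtype array 2. Of the 3 genes, only Scn3b passed in every alternative run.

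Several other genes had positive differences that did not pass. Cacng4 differed by 0.61 ± 0.16 (adjusted p = 0.052), and without SMA ceftriaxone array 4 by 0.79 (adjusted p = 0.00688). Cacng3 differed by 0.45 ± 0.13 (adjusted p = 0.0726), and without wildtype array 1 by 0.57 (adjusted p = 0.0172). Both genes encode TARPs. Cacna1h differed by 0.50 ± 0.15 (adjusted p = 0.0794) and Cacnb1 by 0.24 ± 0.12 (adjusted p = 0.307), and in both every SMA ceftriaxone array lay above every wildtype array without passing. Hcn3 differed by 0.63 ± 0.30 (adjusted p = 0.26), with overlap.

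For the genes that fell in SMA vehicle cords, the SMA ceftriaxone values lay near wildtype. Scn1a differed by -0.15 ± 0.13 (adjusted p = 0.571), with a 95% interval of -0.42 to 0.13. Cacnb4 differed by -0.06 ± 0.11 (adjusted p = 0.815), with an interval of -0.29 to 0.17. Scn8a, the node-type alpha subunit, differed by -0.15 ± 0.15 (adjusted p = 0.623) with all arrays (interval -0.47 to 0.17), but by -0.34 without wildtype array 2 (adjusted p = 0.0154), so it then passed as lower. Scn2a differed by 0.30 ± 0.11 (adjusted p = 0.156), with an interval of 0.05 to 0.54. For the remaining genes of this comparison the differences were 0.55 ± 0.19 (adjusted p = 0.128) for Cacna1d and 0.33 ± 0.18 (adjusted p = 0.334) for Cacnb2. Cacna1b, Cacng2, Cacna1g, Hcn2, Cacna1a, Cacna2d3, Cacna1c and Cacna2d2 ran from -0.04 to 0.17, none past the threshold.

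A second probe set above the filter was available for 7 of the genes. In SMA vehicle against wildtype cords all 7 passed in the direction of the brightest one (47.2% of all probe sets passed). The differences were 1.68 for Scn3b, 1.35 for Cacna2d1, 1.27 for Scn2a, 0.72 for Cacng5, -0.42 for Cacnb4, -0.53 for Scn8a and -0.97 for Scn1a. Wildtype and SMA vehicle arrays overlapped for the second probe sets of Cacnb4 and Scn8a, which they did not for the brightest. With ceftriaxone against SMA vehicle, 6 of the 7 passed in the same direction (35.9% of all probe sets passed), and Scn8a had 0.27 (adjusted p = 0.204). All of these genes had already passed on their brightest probe set in both comparisons, on the same arrays. Against wildtype, Scn3b passed again (0.82, adjusted p = 0.0122), and Scn2a did so on the second probe set only (0.53, adjusted p = 0.0152). Cacna2d1 (0.63, adjusted p = 0.114) and Cacng5 (0.15, adjusted p = 0.706) did not pass on theirs.

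**Figure D5:**
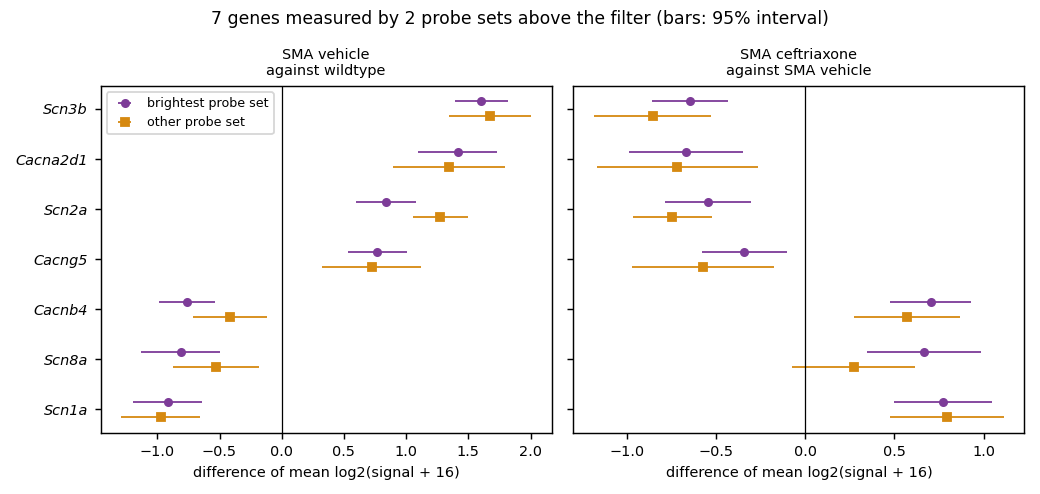
Log2 fold changes with 95% intervals are shown for the brightest and the second probe set of the 7 genes with more than 1 above the filter, in both comparisons that involve the SMA vehicle group. Both probe sets of each gene lie on the same side of 0 in SMA vehicle against wildtype cords, for example -0.92 and -0.97 for Scn1a, and Scn8a is the gene whose second probe set did not pass with ceftriaxone (0.27).

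The 12 members below the filter were dim throughout. The sodium channel alpha genes among them were Scn3a, the embryonic brain form (signals of 1.7 to 22.2 over all arrays), Scn7a, the sodium-sensing form (3.3 to 33.5), and the sensory neuron forms Scn9a (1.8 to 48.5), Scn10a (1.8 to 32.7) and Scn11a (3.3 to 38.4). The calcium channel pores were Cacna1e, the R-type (12.9 to 56), Cacna1f, the retinal L-type (13.4 to 72.3), and Cacna1s, the skeletal muscle L-type (1.6 to 28). The gamma-family genes were Cacng1 (1.2 to 69.9), Cacng6 (2.2 to 49.4), Cacng7 (42.8 to 142) and Cacng8 (10.1 to 76.7). Without detection calls these signals could not be called present or absent. Of the list for dorsal root ganglion neurons, which make the sensory sodium channels, 3 of 8 genes were measured. Their sum was 2789.6 to 3562 in SMA vehicle, 1418 to 2214 in wildtype and 1802 to 2520.3 in SMA ceftriaxone arrays. Nearly all of it was Tac1, the substance P gene, which neurons of the cord also express and which was the only one above the filter (P2rx3 stayed at 1.3 to 7). The part of this list in the channel results was not tested.

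In a limma fit over all 22626 probe sets, 2 of these 12 passed in SMA vehicle against wildtype cords (31.3% of all probe sets did) and the same 2 in SMA ceftriaxone against SMA vehicle cords (22.4%). These were Cacng1 and Cacng8. The signals of Cacng1 were 6.3, 13.9, 9.4 and 2.5 in wildtype arrays 1 to 4, 23.8, 40.3, 69.9 and 46.7 in SMA vehicle arrays and 9.5, 1.3, 1.2 and 3.4 in SMA ceftriaxone arrays. Cacng1 encodes the gamma1 subunit of the skeletal muscle calcium channel, and its SMA vehicle arrays lay above all others. It passed as higher against wildtype (adjusted p = 0.000911) and as lower with ceftriaxone (adjusted p = 0.000555); no fold is given, since all wildtype and SMA ceftriaxone signals lie under the offset of 16, which would set its size. The sum of 12 skeletal muscle genes was 2719 to 6345 in SMA vehicle, 748 to 1856 in wildtype and 409 to 904 in SMA ceftriaxone arrays, although 9 of the 12 were below the filter. Its part in the channel results, those of Cacng1 and Cacnb1 among them, was not tested. Cacng8 encodes gamma8, a TARP; it differed by 0.63 (adjusted p = 0.0485) and -1.13 (adjusted p = 0.00305), sizes that depend on the offset. Against wildtype, 0 of the 12 passed in SMA ceftriaxone cords by limma (2.02% of all probe sets passed). Only 1 had an unadjusted p under 0.05, a threshold at which no share of all probe sets was counted.

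Proteins that anchor, traffic or modify these channels were read from a list of 36 partner genes, of which 21 were measured and 16 lay above the filter. In SMA vehicle against wildtype cords 7 were higher, 4 lower and 5 did not pass, with a median of 0.14; the 11 called are 68.8% of the 16, against 47.2% of all probe sets. With ceftriaxone against SMA vehicle 3 were higher, 6 lower and 7 did not pass, with a median of -0.22 (56.2% called, against 35.9% of all). Against wildtype, 1 was higher and 1 lower in SMA ceftriaxone cords (12.5%, against 4.21% of all). Without wildtype array 2, Ank3 and Stac2 also passed as lower in SMA vehicle cords (-0.27 and -0.20, adjusted p = 0.00644 and 0.0444). With ceftriaxone against SMA vehicle, Ank3 (0.20, adjusted p = 0.0233), Nrcam (-0.25, 0.00493), Fgf12 (-0.26, 0.0154) and S100a10 (-0.19, 0.0276) then passed, and against wildtype Stac2 did (-0.27, 0.0487).

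Fgf13, which encodes an intracellular factor that binds sodium channel tails, had the smallest p of the list in SMA vehicle against wildtype cords. The signals of Fgf13 were 4345, 3294, 4012 and 3651 in wildtype arrays 1 to 4, 6268, 7337, 7706 and 7331 in SMA vehicle arrays and 5469, 4813, 4788 and 4827 in SMA ceftriaxone arrays. The 3 groups did not overlap, with SMA ceftriaxone between the others. Fgf13 rose by 0.90 ± 0.09 (SE; adjusted p = 7.49e-06) in SMA vehicle cords, fell by 0.52 ± 0.09 (SE; adjusted p = 0.000914) with ceftriaxone against SMA vehicle, and was higher than wildtype in SMA ceftriaxone cords (0.38 ± 0.09 (adjusted p = 0.0367)). That last call ended without wildtype arrays 3 (0.0629) or 4 (0.0903), SMA vehicle arrays 2 (0.0563), 3 (0.0511) or 4 (0.0537), or any SMA ceftriaxone array (0.0709 to 0.0884). It also ended under median centring (0.129), no filter (0.0564), no intensity trend (0.0537), a fit of only the 2 groups (0.0953), the replicate block (0.0716) and Xist as a covariate (0.124). Cntnap2, which encodes Caspr2, a protein of the region beside the node, rose by 1.02 ± 0.12 (SE; adjusted p = 2.42e-05) and fell by 0.68 ± 0.12 (SE; adjusted p = 0.00106). With the mean of its probe sets, the fall with ceftriaxone was -0.29 and did not pass (adjusted p = 0.0771). Against wildtype, Cntnap2 in SMA ceftriaxone cords differed by 0.34 ± 0.12 (adjusted p = 0.137), which passed without wildtype array 1 (0.45, adjusted p = 0.0408), and Rem2 by 0.43 ± 0.19 (adjusted p = 0.236). Nedd4l, which encodes a ubiquitin ligase that removes sodium channels from the membrane, rose by 0.62 ± 0.07 (SE; adjusted p = 2.34e-05) and fell by 0.49 ± 0.07 (SE; adjusted p = 0.000319). Rem2, a small GTPase that inhibits calcium channels, rose by 1.23 ± 0.19 (SE; adjusted p = 0.0002) and fell by 0.80 ± 0.19 (SE; adjusted p = 0.00622). Rims2, an active zone scaffold that binds calcium channels, fell by 0.55 ± 0.13 (SE; adjusted p = 0.00405) and rose by 0.67 ± 0.13 (SE; adjusted p = 0.00176).

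Pex5l and Sptbn4 are named here after their values were seen. Pex5l encodes TRIP8b, the subunit that sets the placement of HCN channels. The signals of Pex5l were 437, 256, 279.7 and 422 in wildtype arrays 1 to 4, 174, 191, 138 and 142 in SMA vehicle arrays and 199, 375, 231 and 401 in SMA ceftriaxone arrays. It fell by 1.01 ± 0.23 (SE; adjusted p = 0.00283) in SMA vehicle cords, where Hcn3 rose, and rose by 0.79 ± 0.23 (SE; adjusted p = 0.0172) with ceftriaxone, although SMA vehicle array 2 and SMA ceftriaxone array 1 lay close together. The second call ended without SMA vehicle array 3 (0.0524) or SMA ceftriaxone arrays 2 (0.0591) or 4 (0.058). Sptbn4, which encodes the spectrin of initial segments and nodes, fell by 0.50 ± 0.11 (SE; adjusted p = 0.0024) and rose by 0.43 ± 0.11 (SE; adjusted p = 0.00944). S100a10, a partner that carries sodium channels to the membrane, fell by 0.36 ± 0.12 (SE; adjusted p = 0.0237) in SMA vehicle against wildtype cords. That call ended without SMA vehicle array 3 (0.0573) and in a fit of only the 2 groups (0.0503). S100a10 also fell by 0.55 ± 0.12 (SE; adjusted p = 0.0231) in SMA ceftriaxone against wildtype cords, with its highest signal, 2083, in wildtype array 2. This call ended without SMA ceftriaxone arrays 1 (0.0563), 2 (0.0631) or 3 (0.0603), in a fit of only the 2 groups (0.0941) and with Xist as a covariate (0.144).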

How the data were processed

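Spinal cord RNA was hybridised to 12 expression arrays, 4 in each of the 3 groups that the labels give. Deposited were linear MAS5 signals, an intensity for each probe set, per the submitters' processing notes; no version of MAS5 is named there. The authors' scaling is visible in the values: with the top and bottom 2% of probe sets set aside, every array has a mean of 700.2. No detection calls were used. A single symbol was listed for 20393 of the 22690 probe sets (platform annotation of 2016), several for 691 and none for 1606, and only the first kind was named; 20364 symbols were updated through gene identifiers.

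Values were taken as log2 of the signal plus 16, a scale that compresses differences of dim genes. With 64 control probe sets set aside, 13575 had a mean above the 40th percentile (7.14, or a geometric mean signal of 125) and were tested. A linear model with 1 mean per group used every array (limma 3.58.1, R 4.3.3; lmFit, contrasts.fit and eBayes with trend; 9 residual degrees of freedom). Adjusted p-values are two-sided, Benjamini-Hochberg over all tested probe sets, with a threshold of 0.05, and intervals are 95%. The number of arrays limits the precision. In data simulated for SMA vehicle against wildtype, 200 of 13575 probe sets were changed, and noise was drawn independently for each value. The model found 37 of 67 changes of 0.5 (log2), 61 of 67 of size 1 and 66 of 66 of size 2, and made 8 false calls. In the cords themselves this comparison called 47.2% of probe sets, so these rates are not the power or error of the results above.

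The members, partner and marker lists were chosen with earlier results of these data known. All members are accounted for: tested ones are named with values, those below the filter with their signal range, and of the partner genes the 4 of smallest p in each comparison. Promoter sequences are RefSeq's, GRCm38.p6. Alternatives tried were an offset of 1 or 64, quantile normalization or median centring, no filter or one at the 60th percentile, array weights or no trend, fits of the compared groups alone, a replicate block, an Xist covariate, averaging a gene's probe sets, and leaving out each array. Some items are not reported here.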

Additional observations from a re-analysis of the deposited data

Results flagged for a closer look

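Single arrays stood apart from the other 3 of their group in 3 of the 66 sets of 4 values (22 genes in 3 groups), by a gap to the nearest array above the 95% critical value of Dixon's test; chance gives about 1 in 20. Scn8a, the node-type sodium channel gene, had a signal of 1661.9 in wildtype array 2, against 2765.8 to 2825.3 in the other wildtype arrays. Cacnb4, the beta4 subunit gene, had 2008.3 in the same array, against 2674.4 to 2833.6. Scn3b, the beta3 subunit gene, had 1970.4 in SMA ceftriaxone array 2, against 2300.2 to 2374 in the other SMA ceftriaxone arrays. The ratios were 0.96 for Scn8a, 0.832 for Cacnb4 and 0.83 for Scn3b, so Cacnb4 and Scn3b only just passed on this scale. Wildtype array 2 is the array that carried the thymus genes and had the lowest neuron sum.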

How the results depend on the processing

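Across 1545 values of single genes under the alternatives, 1441 kept their direction and side of the threshold, 55 lost a call, 24 gained one and 25 changed sign, the last all in values that did not pass. Leaving out each array in turn, SMA vehicle against wildtype gave 17 to 19 channel genes called (14 to 15 higher, 3 to 4 lower) and 10 to 13 partner genes. SMA ceftriaxone against SMA vehicle gave 13 to 19 (3 to 4 higher, 10 to 15 lower) and 7 to 13 partners, and SMA ceftriaxone against wildtype 1 to 4 (1 to 4 higher, 0 to 1 lower) and 0 to 3 partners. Under the 60th percentile filter, which leaves 12 channel genes, 11 were called in SMA vehicle against wildtype (8 higher) and 11 with ceftriaxone against SMA vehicle (8 lower).

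In SMA ceftriaxone against wildtype, array weights gave 6 channel genes (5 higher, 1 lower), while a fit of only the 2 groups and Xist as a covariate gave 1 each (higher) and 0 partner genes by limma each, with 3 and 2 partners at an unadjusted p under 0.05. Partners called there were 1 under median centring, no filter, no intensity trend and the replicate block. The causes were not tested. Over all probe sets, that comparison called 572, against 236 under median centring, 111 in a fit of only the 2 groups, 80 with Xist, 344 with the block, 1826 with array weights and 1434 without wildtype array 2; without wildtype arrays 3 or 4 it called 303 or 321, and without SMA ceftriaxone arrays 2, 3 or 4 it called 299, 164 or 317. Higher calls were 78% of the total, 60.6% with array weights and 59.6% without wildtype array 2. The mean of a gene's probe sets, over fewer features, called 3694, 2870 and 394 in the 3 comparisons.

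Same-numbered arrays did not deviate together: correlations ran from -0.143 to 0.133, and at most 1 of 4 pairs per comparison was over 0.1. With the replicate block, 18, 17 and 2 channel genes and 11, 9 and 1 partners were called in the 3 comparisons.

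Sign changes touched Cacnb2 in SMA vehicle against wildtype, which ran from -0.0038 to 0.24 as each array was left out, and otherwise SMA ceftriaxone against wildtype. There, leaving out each array gave -0.033 to 0.15 for Cacna1a, -0.12 to 0.36 for Cacna1b, -0.16 to 0.32 for Cacna1c and -0.071 to 0.19 for Cacna1g. It gave -0.19 to 0.065 for Cacna2d2, -0.13 to 0.15 for Cacna2d3 and -0.053 to 0.17 for Hcn2. Array weights gave -0.058 for Cacna1a, -0.00043 for Cacna1b, 0.30 for Cacna1c, -0.038 for Cacna1g, -0.092 for Cacna2d3 and -0.062 for Hcn2. Xist as a covariate gave -0.052 for Cacna1a, 0.14 for Cacna1c and -0.074 for Hcn2. Cacna1c was 0.0079 at offset 1 and 0.0012 under median centring, and Cacnb4 was 0.047 with the mean of its probe sets.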
